A study of Homo sapiens with 4 samples.

Results

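The regions described here are the bins around HMGA1 on chromosome 6 and around HMGA2 on chromosome 12 in Hi-C maps of IMR90 human diploid lung fibroblasts. They were chosen by position, as the bins that overlap 34.1 to 34.3 Mb of chromosome 6 and 66.2 to 66.4 Mb of chromosome 12 in hg19, with 10 further bins on each side. This gave 22 bins per locus, or 44 of the 14444 bins of about 200 kb in the deposited list. All cells carried pLNCX2 ER:HRAS G12V, an oncogenic RAS fused to an oestrogen receptor domain that 4OHT switches on, and were kept in 10% FBS and 5% O2. Growing cells (Grow) received no 4OHT, and 6 days of 100 nM 4OHT gave oncogene-induced senescence (OIS). In Grow-shA1 and OIS-shA1 the cells also carried pMSCV miR shHMGA1, a vector expressing a short hairpin RNA against HMGA1. The 4 samples of the series, 2 for each shA1 condition, were pooled in the deposited maps, 1 map per condition. The Grow and OIS maps came from an earlier data set of the laboratory, so a difference between maps with and without shA1 cannot be told apart from a difference between data sets. With 1 map per condition no difference could be tested or set against a spread between replicates, and differences are instead placed among those of all bins.

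HMGA1 and HMGA2 are small architectural chromatin proteins whose AT-hook motifs bind the minor groove of AT-rich DNA. Both are abundant in embryonic and many tumour cells, and both collect on the condensed chromatin foci of senescent fibroblasts. HMGA2 is also a classical target of the let-7 microRNAs, which lower its mRNA and protein. Hi-C reports how often the bins of these genes contact other bins and not their expression, so the knock-down of HMGA1 could not be checked in these maps. Only pairs of bins on the same chromosome are listed, so contact between the 2 loci was not measured.

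Each value is a contact score for a pair of bins, balanced and corrected for distance by the authors, so that 0 is the usual contact at that distance. The score is given in its own units because the base of its logarithm is not stated. Local contact was the mean over pairs up to 2 Mb apart and distal contact the mean over longer pairs, taken over pairs listed in all 4 maps. Distal partners were split into the A (active) and B (inactive) compartments of the Grow map. Bins with under 50% of pairs listed in any map were set aside, and the other 13604, of which 5547 were A, are called kept and are the background of every percentile. Listing was the measure of depth and ranged from 89.4% of distal pairs in Grow to 78.6% in OIS-shA1.

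The HMGA1 bin spanned chr6:34198389-34406392 and the HMGA2 bin chr12:66200612-66400061 (GRCh37). HMGA1 (ENSG00000137309.21, chr6:34204650-34214008, + strand) occupies 9.36 kb, while HMGA2 (ENSG00000149948.14, chr12:66218240-66360071, + strand) fills 142 of the 199 kb of its bin. The bin edges are HindIII cut sites, the ends that Hi-C ligates, and the 30 bases of the + strand around each edge are shown with the HindIII site in capitals, because these sites fix which sequence each gene value covers.
HMGA1 bin start, chr6:34198376-34198405: atcatgttggcaAAGCTTatctcaaactct
HMGA1 bin end, chr6:34406380-34406409: ggtctttagacaAAGCTTtaattctttcaa
HMGA2 bin start, chr12:66200599-66200628: gctaaggggttgAAGCTTtagagctctgct
HMGA2 bin end, chr12:66400049-66400078: aactgtacatttAAGCTTcattcagtcaag
The 2 bins differed in content. The HMGA1 bin held 46 HindIII sites, a GC content of 45.4% and the starts of 5 protein-coding genes, which are HMGA1, SMIM29, NUDT3 (a nudix hydrolase), RPS10 (a ribosomal protein) and the read-through RPS10-NUDT3. The HMGA2 bin held 64 HindIII sites, a GC content of 39.2% and the start of HMGA2 alone. The nearest other protein-coding starts were GRM4, a glutamate receptor, at 81.3 kb and SMIM29 at 12.2 kb for HMGA1. For HMGA2 they were MSRB3, a methionine sulfoxide reductase, at 546 kb and LLPH at 306 kb. The HMGA1 window held 100 gene starts at a median GC content of 46.7%, and the HMGA2 window 23 at 39.6%, against a median of 39.7% over kept bins. All 22 bins of the HMGA2 window were kept, but only 15 of the HMGA1 window, and the GRM4 bin next to HMGA1 was not.

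The HMGA1 bin lay in the A compartment of growing cells and made few contacts with B bins in any map. Its distal contact with B bins was -1.20 in Grow, -1.27 in Grow-shA1, -1.18 in OIS and -1.29 in OIS-shA1, never above the 1.43rd percentile of kept bins. Its distal contact with A bins was -0.0789, -0.123, -0.215 and -0.216 in the same order, near the middle of all bins. The difference between the 2 was 1.12 in Grow, 1.15 in Grow-shA1, 0.964 in OIS and 1.07 in OIS-shA1. The HMGA1 bin thus kept a preference for A partners in all 4 maps. OIS differed from Grow by -0.136 in contact with A bins (33.3rd percentile of all bins, 8.55th of A bins) and by 0.0176 in contact with B bins (72.8th percentile), both smaller than the 0.2 used as a size threshold. The SDs of these differences over the pairs were 0.564 (265 pairs) and 0.588 (64 pairs). The call for HMGA1 depended on the setting, since the difference with B bins was 0.331 with unlisted pairs as 0, 0.310 when scores were divided by the SD at their distance, and -0.0965 with unlisted pairs at the lowest value of their distance. With A bins it was -0.210 under the last of these.

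The compartment score, the first principal component of each chromosome's map, gave a different picture at HMGA1. It was 0.581 in Grow, 0.458 in Grow-shA1, -0.00302 in OIS and -0.0431 in OIS-shA1. The score of the HMGA1 bin was thus near 0 in both senescent maps, and its OIS minus Grow difference of -0.584 was at the 1.19th percentile. The share of its pairs with B bins that were listed was 59.9% in Grow, 48.7% in Grow-shA1, 33.9% in OIS and 30.3% in OIS-shA1, and unlisted pairs count as 0 in this score. With each unlisted pair at the lowest value of its distance the HMGA1 score was 0.992 in Grow and 0.832 in OIS, and with 1 component per chromosome arm it was 1.09 and 0.287. The HMGA1 bin was A in all 4 maps under both settings.

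The near contacts of HMGA1, up to 1 Mb, were higher on average in OIS than in Grow. The HMGA1 bin contacted the adjacent GRM4 bin at 0.722 in Grow, 0.645 in Grow-shA1, 1.27 in OIS and 0.984 in OIS-shA1. The GRM4 bin was not kept, but the pair was listed in all 4 maps. On the other side it contacted the bin of PACSIN1 and SPDEF, an ETS transcription factor, at 0.961, 0.905, 1.29 and 0.903. OIS was the highest of the 4 maps for both neighbours. Of the 21 other bins of the window, 16 were higher in OIS than in Grow, with a median difference of 0.271. The median difference in local contact over all kept bins was -0.116. Over the 4 partners within 0.5 Mb the mean difference was 0.451 (96.0th percentile), and over the 6 partners at 0.5 to 1 Mb it was 0.374 (94.6th percentile). Percentiles by distance class, here and below, were chosen after values were seen. At 1 to 2 Mb the HMGA1 bin differed by -0.0688 (56.1st percentile). Over all 19 local pairs the difference was 0.180 (85.0th percentile), below the size threshold, but 0.321 with scores centred at each distance, 0.250 divided by the SD and -0.00219 with a limit of 5 Mb.

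Within 0.5 Mb the HMGA1 bin's contact in OIS-shA1 lay between OIS and the growing maps, nearer to the latter. Its contact with the partners within 0.5 Mb was 0.144 in Grow, 0.118 in Grow-shA1, 0.595 in OIS and 0.220 in OIS-shA1. OIS-shA1 minus OIS was -0.375 (2.66th percentile). Over the window, 9 of the 10 bins after HMGA1 were lower, among these most of all the TCP11 and SCUBE3 bin at -0.4999. The 11 bins before HMGA1 were split in the same comparison, with 6 lower and 5 higher, from -0.519 to 0.847. This comparison shares the OIS map with OIS minus Grow, so the opposite signs of the 2 are not independent. OIS-shA1 minus Grow-shA1, which shares no map with OIS minus Grow, was 0.102 (77.6th percentile), and Grow-shA1 minus Grow was -0.0259 (58.9th percentile). At 0.5 to 1 Mb the OIS-shA1 map was nearer to OIS, with HMGA1 contact of -0.205 in Grow, -0.206 in Grow-shA1, 0.169 in OIS and 0.0292 in OIS-shA1. OIS-shA1 minus Grow-shA1 was 0.235 there (91.0th percentile). OIS-shA1 minus OIS was -0.140 there (33.4th percentile) and 0.0907 at 1 to 2 Mb (65.4th percentile). Over all 19 local pairs OIS-shA1 minus OIS was -0.0801 (40.8th percentile), so the low rank was limited to partners within 0.5 Mb.

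**Figure D1:**
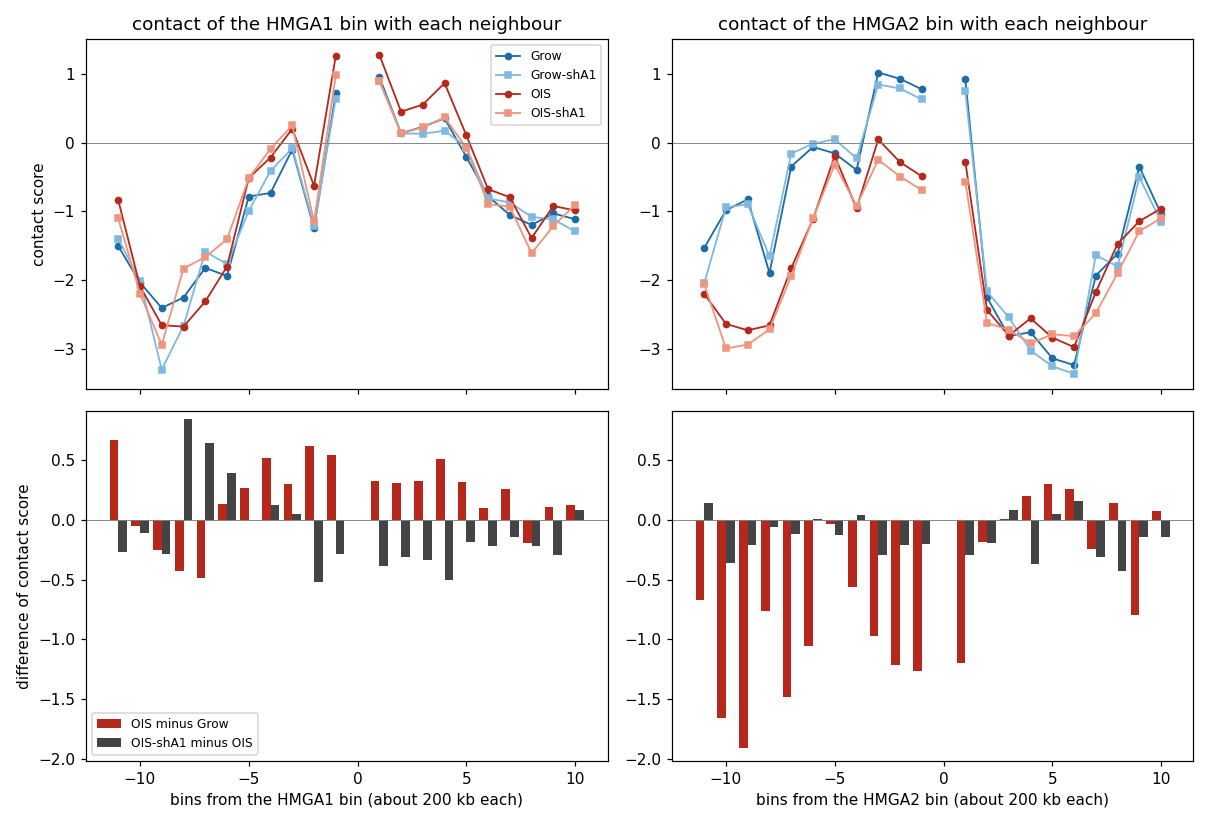
Contact of the HMGA1 bin (left) and the HMGA2 bin (right) with each bin of its window, by distance in bins. The upper panels give the contact score in the 4 maps as points joined by lines, and the lower panels give as bars the differences of OIS to Grow and of OIS-shA1 to OIS. The bins next to HMGA1 are highest in OIS, and the 4 nearest bins of the HMGA2 domain are lower in both senescent maps than in both growing maps.

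HMGA2 lay in the A compartment in all 4 maps. The compartment score of its bin was 1.32 in Grow (99.2nd percentile), 1.28 in Grow-shA1, 1.12 in OIS and 1.12 in OIS-shA1, and the bin stayed A in each map. Its distal contact with A bins was 0.558 in Grow, 0.480 in Grow-shA1, 0.256 in OIS and 0.312 in OIS-shA1. Both senescent maps were below both growing maps. OIS minus Grow was -0.302 (SD over 231 pairs 0.669), which was at the 17.8th percentile of all bins but at the 0.721st percentile of A bins. Over the locus and adjacent bins it was -0.191, below the size threshold. OIS-shA1 minus Grow-shA1 was -0.168, at the 6.26th percentile of A bins.

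The larger difference at HMGA2 was in local contact. Local contact of the HMGA2 bin was -1.01 in Grow, -1.01 in Grow-shA1, -1.66 in OIS and -1.82 in OIS-shA1. The growing maps differed by -0.000575 and both senescent maps were lower. OIS minus Grow was -0.654 (SD over 19 pairs 0.703), at the 7.55th percentile, and OIS-shA1 minus Grow-shA1 was -0.809 (SD 0.766), at the 0.573rd percentile. Contact across the bin, between the 5 bins before and the 5 bins after it, was 0.0454 in Grow, 0.0698 in Grow-shA1, -0.479 in OIS and -0.773 in OIS-shA1. For this value OIS minus Grow was -0.524, at the 16.8th percentile, and OIS-shA1 minus Grow-shA1 was -0.843, at the 2.16th percentile.

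Contacts inside the HMGA2 domain itself were among those that were lower. In Grow the bin belonged to an A run of 5 bins, chr12:65601941-66591920, that held the starts of MSRB3, HMGA2, LLPH, TMBIM4 and IRAK3, a negative regulator of interleukin-1 receptor signalling, and lay between B bins. The mean contact over its 10 pairs was 1.09 in Grow, 0.956 in Grow-shA1, 0.0898 in OIS and -0.157 in OIS-shA1. All 10 pairs were lower in OIS than in Grow and in OIS-shA1 than in Grow-shA1. OIS minus Grow was -1.002 on average, and of 590 A runs of the Grow map only 1 had a lower value. OIS-shA1 minus Grow-shA1, from the other 2 maps, was -1.11, and again 1 of 590 runs was lower. The median A run differed by 0.0429 and -0.0610 in the 2 comparisons. The HMGA2 run was examined after the values of the HMGA2 bin were known. The A run around HMGA1 was longer, at 29 bins. Its mean contact differed by -0.0746 for OIS minus Grow (27.8th percentile of the 590 runs). For OIS-shA1 minus Grow-shA1 it differed by -0.189 (21.2nd percentile).

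Within the HMGA2 run the pairs that involve or span the gene differed most. The HMGA2 bin contacted the LLPH and IRAK3 bin at 0.926 in Grow, 0.752 in Grow-shA1, -0.274 in OIS and -0.567 in OIS-shA1. Its contact with the bin before it, which has no gene start, was 0.779, 0.633, -0.489 and -0.688. The bins on either side of HMGA2 contacted each other at 0.889, 0.764, -0.879 and -1.12, so OIS minus Grow was -1.77, the lowest of the 10 pairs. The pair of the MSRB3 bin with the bin after it, at the far end of the run, differed least, by -0.380. For all 4 partners within 0.5 Mb the HMGA2 bin's mean OIS minus Grow was -0.966 (1.21st percentile) and its OIS-shA1 minus Grow-shA1 was -1.10 (0.0662nd percentile). These percentiles too were chosen after values were seen.

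Contact with the further A bins upstream was lower too. The HMGA2 bin contacted the bin of TBK1, a kinase of innate immune signalling, and RASSF3 at -0.346 in Grow, -0.156 in Grow-shA1, -1.83 in OIS and -1.94 in OIS-shA1. For the bin of SRGAP1 the scores were -0.982, -0.943, -2.64 and -3.00. The largest OIS minus Grow difference of the window was with the bin after SRGAP1, at -1.91. All 9 A partners in the window were lower in OIS, by -1.28 on average, while 6 of the 12 B partners were lower and 6 higher, with a mean of -0.122. In OIS-shA1 against Grow-shA1 all 9 A partners of HMGA2 were lower too, by -1.42 on average.

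**Figure D2:**
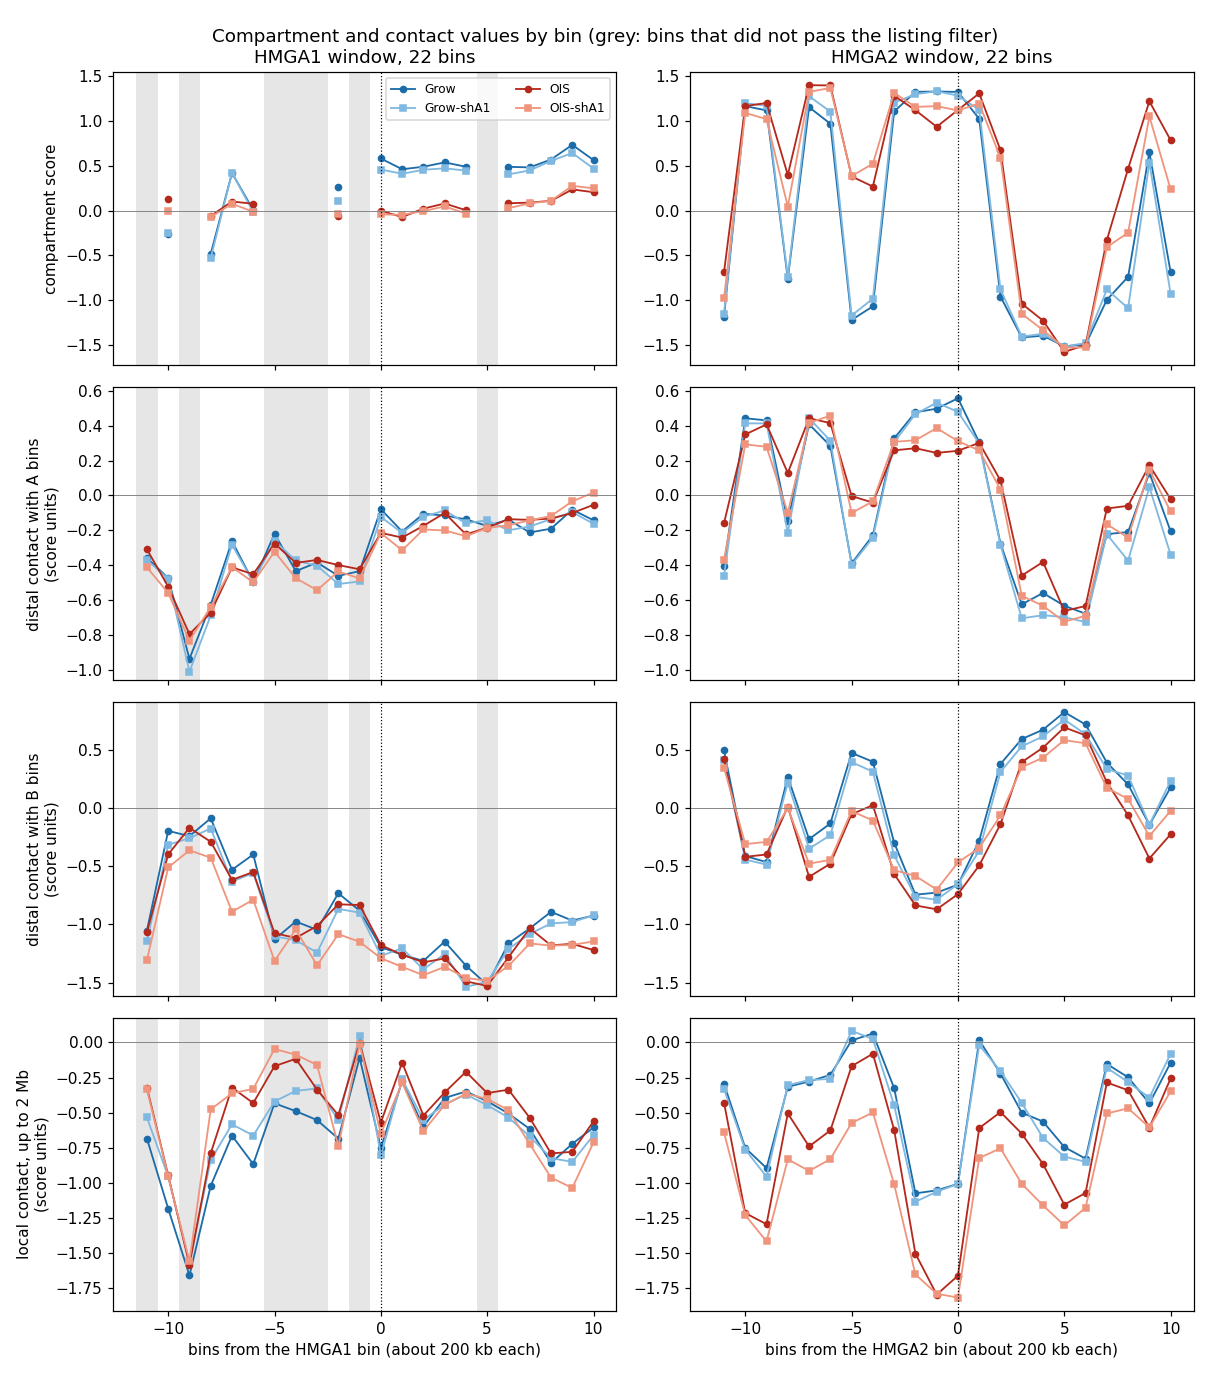
Compartment score, distal contact with A bins, distal contact with B bins and local contact of each bin in the HMGA1 (left) and HMGA2 (right) windows, by distance from the gene bin in bins, with 1 line per map. Grey bands mark bins that did not pass the listing filter and have no compartment score. The HMGA2 window alternates between A and B in Grow and its local contact at the gene bin is -1.66 in OIS and -1.82 in OIS-shA1 against -1.01 in both growing maps. The HMGA1 scores lie near 0 in both senescent maps.

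Several B bins that flank the HMGA2 domain scored as A in the senescent maps. Of the 22 HMGA2 window bins, 6 changed from B in Grow to A in OIS (background 9.47% of all kept bins) and none changed from A to B (background 0.713%). They include the bin of WIF1, a Wnt inhibitor, and LEMD3, an inner nuclear membrane protein, with compartment scores of -1.07 in Grow, -0.982 in Grow-shA1, 0.268 in OIS and 0.523 in OIS-shA1. On the other side the bin of HELB, a DNA helicase, scored -0.960, -0.879, 0.674 and 0.588. Both senescent maps placed these bins in A. The backgrounds are shares of all kept bins, although only B bins can change to A and only A bins to B. Of the 8057 B bins of Grow, 1288 were A in OIS, and of its 5547 A bins 97 were B. The HMGA2 window had 10 A and 12 B bins in Grow, and the HMGA1 window 13 A and 2 B kept bins. With shA1, 5 bins of the HMGA2 window changed from B to A against Grow-shA1 (background 8%) and none from A to B (background 1.18%). In the HMGA1 window 5 of 15 kept bins, the gene bin among them, changed from A to B in that comparison. Against OIS, 1 bin of the HMGA2 window and 4 of the HMGA1 window were B in place of A in OIS-shA1 (background 3.15%), and none changed the other way (background 1.53%). Grow-shA1 against Grow gave 1 change from A to B, in the HMGA1 window (background 1.48%), and none from B to A (background 1.79%). In the HMGA1 window 3 of 15 kept bins changed from A to B in OIS, each with an OIS score between -0.0719 and 0, and 1 changed from B to A. Of these 3 bins, values under the other compartment settings given above are at hand for the gene bin alone.

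Distal contact with B bins was lower in OIS at a larger share of HMGA2 window bins than of HMGA1 window bins. In the HMGA2 window 11 of 22 bins were at least 0.2 lower in distal contact with B bins (background 26.4%) and none was at least 0.2 higher (background 4.37%). The largest fall of the HMGA2 window was 5 bins before the gene, in a bin with no gene start, at 0.471 in Grow, 0.391 in Grow-shA1, -0.0551 in OIS and -0.0279 in OIS-shA1. The same bin had the largest gain of contact with A bins, 0.387 (99.7th percentile). The HELB bin differed by -0.517 with B bins (1.60th percentile) and 0.363 with A bins (99.6th percentile). The largest rise with B bins in the HMGA2 window was 0.0659, in the bin after SRGAP1. In the HMGA1 window 4 of the 15 kept bins were at least 0.2 lower, close to the background share, and no other bin was. The HMGA1 window's largest fall was -0.296, in the bin of PNPLA1, BNIP5 and ETV7. Its largest rise was 0.0714, in the bin of HLA-DRA, which was not kept. In OIS-shA1 against Grow-shA1, 7 of 22 bins of each window were at least 0.2 lower with B bins (background 23.3%) and none higher (background 5.97%). In Grow-shA1 against Grow none was lower (background 4.22%) or higher (background 0.478%).

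Distal contact with A bins differed by at least 0.2 in no bin of the HMGA1 window in any of the 4 comparisons. In the HMGA2 window 3 of 22 bins were lower in OIS than in Grow (background 25.7%) and 4 were higher (background 5.7%). In OIS-shA1 against Grow-shA1 none was lower (background 20.6%) and 4 were higher (background 8.81%). OIS-shA1 was lower than OIS in 3 bins (background 5.24%) and higher in none (background 7.67%). Grow-shA1 was neither lower (background 4.01%) nor higher (background 0.213%) than Grow in any.

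For local contact, 13 of 22 bins of the HMGA2 window were at least 0.2 lower in OIS than in Grow (background 40.7%), with a median of -0.286 against -0.116 over all bins. In OIS-shA1 against Grow-shA1, 21 of 22 were (background 30.3%), with a median of -0.520 against -0.0885. OIS-shA1 was also lower than OIS by at least 0.2 in 11 of 22 bins (background 19%) and higher in none (background 18.9%). The largest fall of local contact in OIS was in the bin just before HMGA2, at -1.05 in Grow, -1.06 in Grow-shA1, -1.79 in OIS and -1.79 in OIS-shA1. No bin of the HMGA2 window was higher in OIS, the least negative difference being -0.0924.

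The HMGA1 window went the other way for local contact. In OIS none of its 22 bins was at least 0.2 lower than in Grow, and 8 were at least 0.2 higher (background 13.3%), 4 of them kept. The median was 0.154. The largest rise was in the bin of HLA-DPA1, HLA-DPB1 and other genes of the major histocompatibility complex, with local contact of -0.866 in Grow, -0.663 in Grow-shA1, -0.431 in OIS and -0.330 in OIS-shA1. Genes of this complex have close copies, so reads there may be placed less surely. The largest fall was -0.0568, in the bin of MAPK13, a p38 kinase, and BRPF3. In Grow-shA1 against Grow, 3 of 22 HMGA1 window bins were at least 0.2 higher in local contact (background 0.353%) and none of the HMGA2 window, and none of either window was lower (background 6.31%). In OIS-shA1 against Grow-shA1, 5 of the HMGA1 window were higher (background 7.95%), 3 of them kept.

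**Figure D3:**
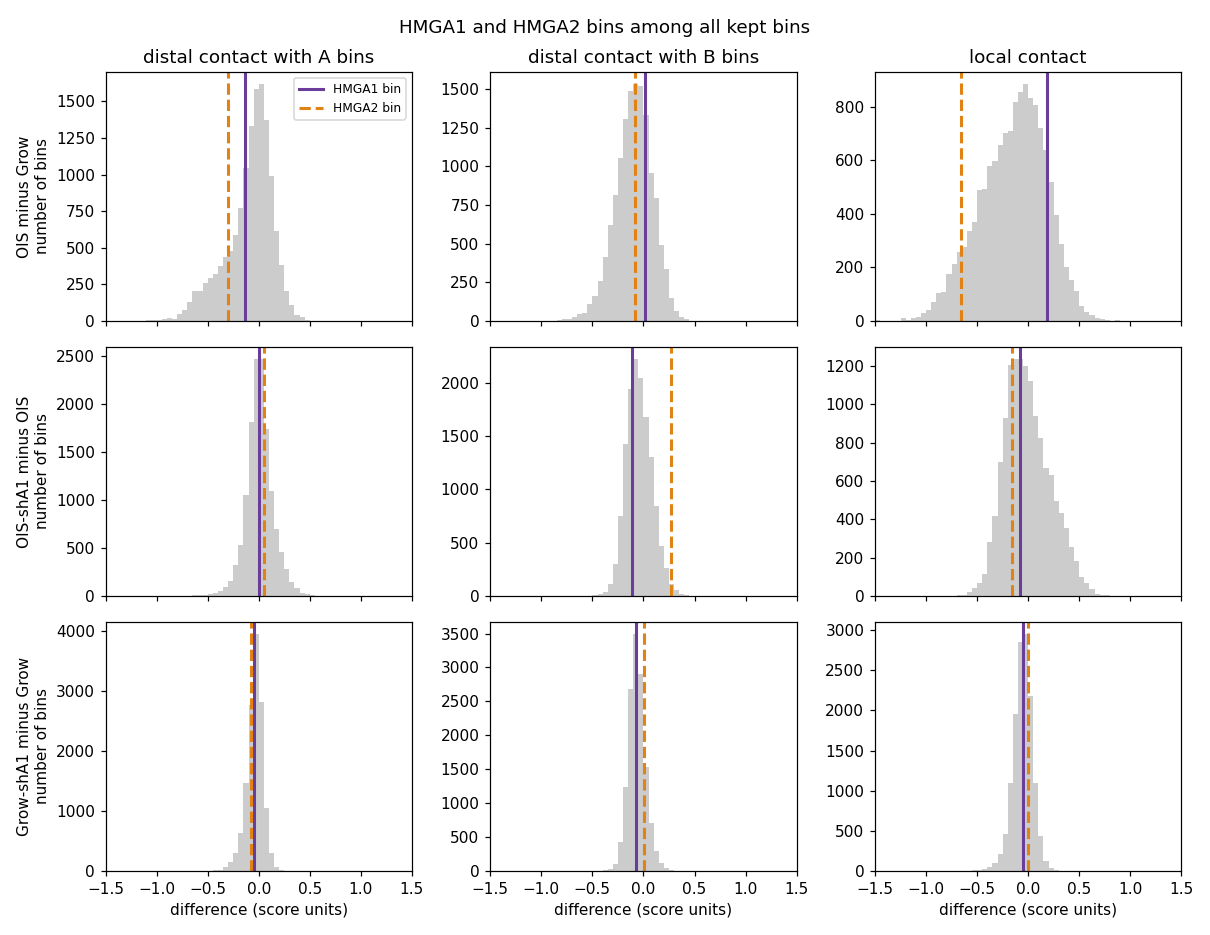
Differences of distal contact with A bins, distal contact with B bins and local contact for all kept bins (grey histograms, bin width 0.05 score units, values beyond 1.5 counted in the end bars) with the HMGA1 bin as a solid line and the HMGA2 bin as a dashed line. From top to bottom the rows compare OIS with Grow, OIS-shA1 with OIS and Grow-shA1 with Grow. The HMGA2 bin stands at -0.654 for local contact in OIS minus Grow and at 0.272 for distal contact with B bins in OIS-shA1 minus OIS.

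The contrast of OIS-shA1 with OIS placed HMGA2 high in contact with B bins. Distal contact of the HMGA2 bin with B bins was -0.660 in Grow, -0.655 in Grow-shA1, -0.741 in OIS and -0.469 in OIS-shA1. The OIS-shA1 map was the highest of the 4 by 0.186. OIS-shA1 minus OIS was 0.272 (SD over 253 pairs 0.484), at the 99.1st percentile, and 184 of the 253 pairs were higher. It was 0.171 with unlisted pairs as 0, below the size threshold. Grow-shA1 minus Grow was 0.00475. The interaction, the RAS difference with shA1 minus that without, was 0.267 (97.7th percentile), and 0.0978 with unlisted pairs as 0. Distal contact with B bins was at least 0.2 higher in 3 of 22 bins of the HMGA2 window (background 3.34%). In the HMGA1 window none was, and 7 of 22 were at least 0.2 lower (background 9.01%), 3 of them kept. The GRM4 bin stood at -0.316 and the HMGA1 bin itself at -0.112 (SD 0.556, 64 pairs).

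Target blocks of 25 bins showed where the HMGA2 locus gained and lost distal contact. Here a locus is the 2 bins that overlap its stated interval, the gene bin and the bin before it. For HMGA1 the bin before is the GRM4 bin, which was not kept. A value was given for 22 of the 27 blocks of chromosome 12 and for 6 of the 34 of chromosome 6, since a block needed 50% of its pairs with the locus listed in all maps and had to lie over 2 Mb away. The HMGA2 locus was lower in OIS than in Grow in 14 of 22 blocks, with a median of -0.195. No such count is at hand for other loci. Over all kept bins the median difference in distal contact was also negative, at -0.0446 with A bins and -0.0872 with B bins. The largest fall was with chr12:72595227-77602768, the nearest block downstream with a value, at -0.289 in Grow, -0.344 in Grow-shA1, -1.02 in OIS and -0.963 in OIS-shA1. Next were chr12:102599898-107602750 at -0.517 and chr12:10000395-14994298 at -0.496. The largest rise was with chr12:92600231-97599033, at 0.682, 0.625, 0.989 and 1.26. Rises of 0.231 and 0.195 followed, with chr12:47601857-52604571 and chr12:82600651-87598309.

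In OIS-shA1 against OIS the HMGA2 locus was higher in 15 of 22 blocks, with a median of 0.144. Again no such count is at hand for other loci. The medians over all kept bins were 0.00386 with A bins and -0.0502 with B bins. The highest block by this difference, named after its value was seen, was chr12:112600273-117597127 at 0.752. For the HMGA1 locus the differences of OIS and Grow were within the range from -0.178 for chr6:107799786-112799205 to 0.131 for chr6:15002415-20000774. The next falls were -0.158 for chr6:25002750-30002922 and -0.0291 for chr6:40002904-44998741. The next rises were 0.0846 for chr6:1-5001110 and 0.0603 for chr6:10006015-15002414.

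**Figure D4:**
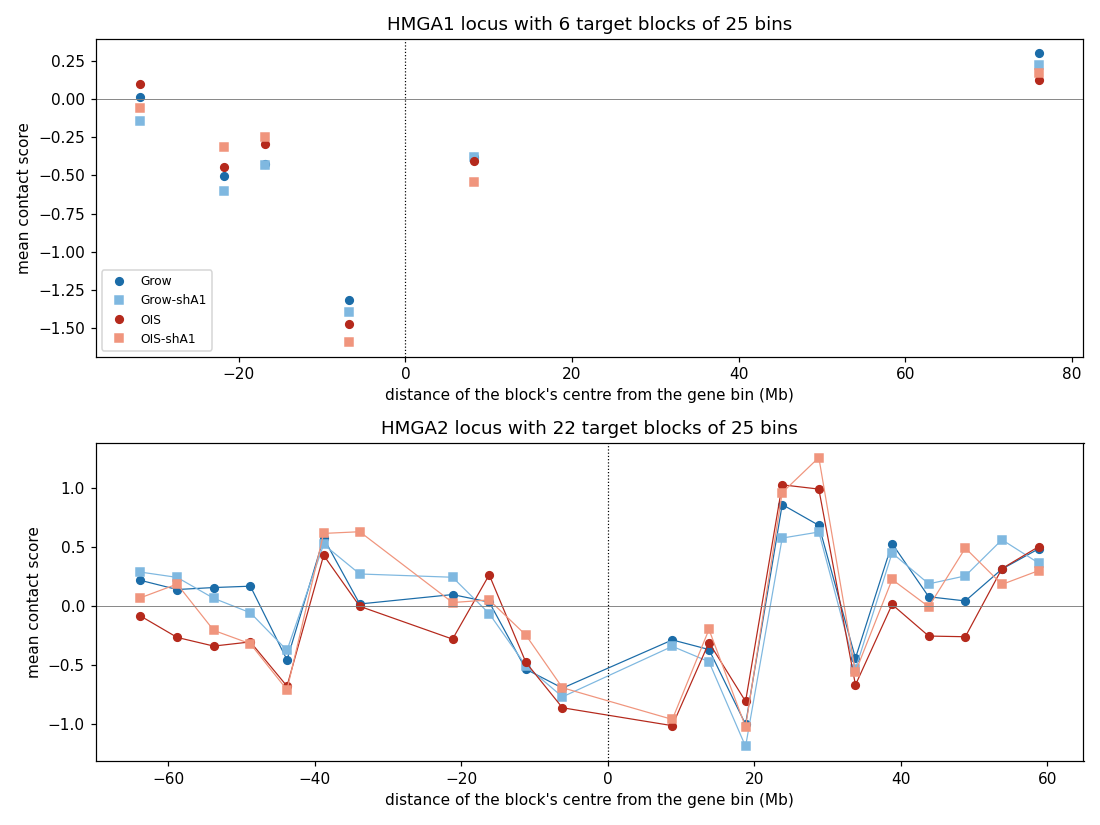
Mean contact score of the HMGA1 locus (upper panel, 6 blocks) and the HMGA2 locus (lower panel, 22 blocks) with target blocks of 25 bins, by distance of the block's centre from the gene bin in Mb, with 1 colour per map. Each locus is the gene bin and the bin before it. For the HMGA2 locus the nearest downstream block with a value is at -0.289 and -0.344 in the growing maps and at -1.02 and -0.963 in the senescent maps.

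The genes of 3 related lists were placed by their start of transcription, and 29 of 33 had a kept bin. In OIS minus Grow, 17 of the 29 bins were past 0.2 on at least 1 of the 3 contact values, against 73.7% of all kept bins. For local contact 6 were higher (background 13.3%) and 8 lower (background 40.7%), a smaller share than the background, and the median was 0.00438 against -0.116. Of the 7 other HMG protein genes with a kept bin, HMGB2, which leaves chromatin in many senescent cells, had the lowest local difference at -0.467, and HMGB3 the highest at 0.233. HMGN3 and HMGN4, nucleosome-binding proteins encoded on chromosome 6, differed by -0.252 and 0.115. Of 16 senescence heterochromatin genes, 3 were higher and 4 lower in local contact, against the same 13.3% and 40.7% of all kept bins, from UBN1, a subunit of the HIRA histone chaperone, at -0.722 to RB1, the retinoblastoma protein, at 0.459. ASF1A on chromosome 6 and CBX5, which encodes HP1 alpha on chromosome 12, stood at -0.163 and -0.0348.

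Among the 6 let-7 and HMGA2 axis genes with a kept bin, 4 were at least 0.2 lower in distal contact with B bins in OIS (background 26.4%), and IGF2BP1, a let-7 target and RNA-binding protein, was higher at 0.220. DICER1, the enzyme that cuts microRNA precursors, was lowest at -0.363. LIN28B on chromosome 6, which blocks let-7 maturation, differed by -0.208 in distal contact with B bins and by -0.624 in local contact. In Grow-shA1 against Grow 4 of the 29 bins were past 0.2 on any value (background 14.1%), in OIS-shA1 against OIS 8 (background 49.4%) and in OIS-shA1 against Grow-shA1 21 (background 66.3%).

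The bins most like HMGA1 in distal contact with A and B bins over the 4 maps, by Euclidean distance over these 8 values among 7152 other kept bins with a gene start, held SETD2, KLHL18 and KIF9 on chromosome 3 (distance 0.138), DIP2B on chromosome 12 (0.151), and NCKAP5L, BCDIN3D, FAIM2, AQP2, AQP5 and AQP6 on chromosome 12 (0.176). The median distance was 2.42. Those most like HMGA2 held LACTB, RPS27L, RAB8B and APH1B on chromosome 15 (0.176), SAFB, SAFB2, RPL36, MICOS13, HSD11B1L, LONP1, CATSPERD, PRR22 and DUS3L on chromosome 19 (0.197) and CUBN on chromosome 10 (0.209), against a median of 1.45.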

How the data were processed

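The deposited maps give a score for each listed pair of bins. Per the study's methods, reads were aligned to hg19 with HiC-Pro, counted in bins of about 200 kb, balanced by ICE and corrected for distance by the authors before this score was deposited. The base of the logarithm and the reads behind a pair are not given in the sources used here, so the precision of a score is unknown. The 2 maps of the earlier data set belong to no sample. Bins on the 22 autosomes and X were analysed with Python 3.11.15, numpy 2.4.6 and pandas 2.3.3. Compartment scores were first principal components of each chromosome's correlation matrix, oriented by gene starts (GENCODE lifted to GRCh37) and scaled to a root mean square of 1. Contact values used pairs listed in all 4 maps and the Grow compartments, and were tested on simulated data. There distal pairs were left unlisted at random and at the same rate in each map. The simulation therefore does not cover the sparse and uneven listing of HMGA1 pairs with B bins. Members and gene lists were chosen with earlier results of these data known. The genes named were HMGA1, HMGA2, genes starting in the locus bins, their nearest neighbours, and the bins, blocks, listed genes and most alike bins with the largest values by the rules given beside them. Alternatives changed pairs, scaling, distance limits, compartments, block width and threshold.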

Additional observations from a re-analysis of the deposited data

Results flagged for a closer look

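The RAS difference in distal contact of the HMGA2 bin with B bins had opposite signs without and with shA1, at -0.0810 for OIS minus Grow and 0.186 for OIS-shA1 minus Grow-shA1. These 2 values lie 0.267 score units apart. It was not tested, because there was 1 map per condition, and it was 0.0978 with unlisted pairs as 0. The signs were opposite in the setting used here but not in all: OIS minus Grow was 0.0386 with unlisted pairs as 0 and 0.0413 with scores divided by the SD at their distance, where OIS-shA1 minus Grow-shA1 was 0.136 and 0.293. The share of the HMGA2 bin's pairs with B bins that were listed was 88.5% in Grow, 81.5% in Grow-shA1, 78.4% in OIS and 81.5% in OIS-shA1, and its part in the result was not tested.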

How the results depend on the processing

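Of 360 alternative values for differences at the 2 gene bins, 347 moved by less than the SD of that difference over all kept bins. No difference past 0.2 in the main setting changed sign, but smaller ones did. HMGA1 OIS-shA1 minus Grow-shA1 with B bins was -0.0200 in the main setting and rose past 0.2 in 2 alternatives, given below. The HMGA2 local difference of OIS and Grow ranged from -0.750 to -0.461 and that of OIS-shA1 and Grow-shA1 from -0.809 to -0.595. Distal contact of HMGA1 with B bins, for which 64 of 446 pairs were listed in all maps, moved most often among the contact values: with unlisted pairs as 0, OIS against Grow was 0.331, Grow-shA1 against Grow 0.107, OIS-shA1 against Grow-shA1 0.226 and the HMGA2 interaction 0.0978. With values divided by the SD at the same distance the HMGA1 values were 0.310 for OIS minus Grow and 0.223 for OIS-shA1 minus Grow-shA1. Over the locus and adjacent bins, the HMGA1 interaction with B bins was -0.155 and its local Grow-shA1 minus Grow 0.0620. With a limit of 5 Mb, the HMGA2 local OIS-shA1 minus OIS was 0.105 and its interaction 0.115, and over 10 bins on each side its contact across the bin was -0.515 for OIS-shA1 minus Grow-shA1. With unlisted pairs at the lowest value of their distance, a setting chosen after seeing the data, HMGA1 OIS-shA1 minus OIS with B bins was 0.0218 and its compartment score difference of OIS and Grow -0.160. The cause was not tested.

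The number of window values past the threshold (3 contact values for each of 22 bins) moved as follows. At 0.1 the HMGA1 counts were 27 for OIS against Grow, 30 for OIS-shA1 against OIS, 17 for Grow-shA1 against Grow and 33 for OIS-shA1 against Grow-shA1, from 12, 10, 3 and 12 at 0.2, and the HMGA2 counts 51, 37, 6 and 53, from 31, 17, 0 and 32. At 0.3 they were 4, 3, 0 and 3 for HMGA1 and 19 and 5 for HMGA2 in the first 2 comparisons. Divided by the SD, HMGA1 had 21 in OIS minus Grow and 1 in Grow-shA1 minus Grow, where HMGA2 had 1. With only kept bins HMGA1 had 6 in OIS-shA1 minus OIS, also chosen after seeing the data. Listed genes past 0.1 were 27, 23 and 22 in the first 3 comparisons, and past 0.3 they were 11, 2, 0 and 7. With blocks of 10 bins the HMGA1 extremes were 0.309 and -0.457, and divided by the SD its largest fall was -0.497. No paired analysis was possible because the maps pool the replicates of each condition, and no replicate could be left out.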
